A study of Rattus norvegicus with 12 samples.

Results

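The genes described here encode 7 secreted growth factors that dermal cells make or meet: the fibroblast growth factors Fgf1, Fgf2, Fgf7, Fgf9, Fgf10 and Fgf18, and hepatocyte growth factor, Hgf. They were taken by gene symbol. Of the 7, 6 had an array feature with that gene symbol alone, 1 feature each. No feature of Fgf18 is named in the annotation used here, and it has no value below. Of the 6 measured, 5 passed a limit on low signal and were among the 13636 genes tested, of 18166 genes with a feature. Fgf9 did not pass, with a mean log2 value of 5.33 beside a limit of 5.83, and was under that limit on all 12 arrays.

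The cells were skin-derived precursors (SKPs), dermal precursor cells that grow as floating spheres, from newborn Sprague-Dawley rats. Secondary spheres were dissociated and the cells were cultured for 24 h with vehicle, alprostadil (prostaglandin E1), trimebutine maleate (used against gut spasm), or trimebutine maleate plus trametinib, called the combination below, each drug at 100 nM. Trametinib blocks MEK, which phosphorylates ERK. Each of the 4 groups had 3 arrays, from 3 independent isolates per the design text. The labels do not say how many pups an isolate came from. The growth medium held 40 ng/ml of FGF2 protein and 20 ng/ml of EGF in all groups, so the cells were supplied with a ligand that is also among the genes measured. Trametinib was given only with trimebutine, so no group shows trametinib alone.

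FGFs bind FGF receptors together with heparan sulfate, and HGF binds the receptor MET. Both kinds of receptor signal through RAS, MEK and ERK. In skin, FGF7 (keratinocyte growth factor) and FGF10 are made by mesenchymal cells and act on epithelial cells through the epithelial form of FGFR2. FGF1 and FGF2 lack a classical signal peptide and bind several FGF receptors. HGF is a paracrine factor of dermal papilla cells and fibroblasts that is secreted as an inactive chain and cut by proteases.

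The deposited values are log2 expression values, so a difference of 1 is a doubling. Levels are not compared between genes, since each gene is read by its own probes. Differences are given with the standard error (SE) of a limma model over all 12 arrays, with n = 3 arrays per group. Adjusted p-values are Benjamini-Hochberg values of that model over all 13636 genes, and a gene is said to have risen or fallen where this value was under 0.05. Replicate numbers paired the arrays, so values from the same model with the replicate number as a block are given where they change a call. Array medians lay between 6.409 and 6.505, and within groups the correlation between arrays was 0.985 to 0.991. All 14 measured dermal precursor markers, Pdgfra, Col1a1 and Vim among them, were above the low-signal limit on every vehicle array. So were all 6 measured Schwann cell markers and 10 of 11 macrophage markers, so passing the limit does not single out dermal cells. With the combination, 12 of the 14 dermal markers were above it on every array.

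Upstream sequences are shown for Fgf7, the member that rose with trametinib, for Fgf10, the member that fell most, and for Hgf, the ligand of MET. Each is the 250 bases before the gene's start in RefSeq (GRCr8), written 5′ to 3′ in the gene's direction. Capitals mark a match to any of 6 motifs searched on both strands.
Fgf7 (chr3:133735377-133735626, forward strand): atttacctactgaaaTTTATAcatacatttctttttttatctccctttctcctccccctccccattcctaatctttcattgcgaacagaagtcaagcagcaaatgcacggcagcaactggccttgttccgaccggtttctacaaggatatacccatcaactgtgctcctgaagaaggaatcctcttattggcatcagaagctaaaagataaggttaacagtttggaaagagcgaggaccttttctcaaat
Fgf10 (chr2:52533689-52533938, forward strand): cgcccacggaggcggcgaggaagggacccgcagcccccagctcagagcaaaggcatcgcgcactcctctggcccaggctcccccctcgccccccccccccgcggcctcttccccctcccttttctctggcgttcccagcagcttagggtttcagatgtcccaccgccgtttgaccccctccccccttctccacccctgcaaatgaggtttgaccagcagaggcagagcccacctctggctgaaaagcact
Hgf (chr4:19700468-19700717, reverse strand): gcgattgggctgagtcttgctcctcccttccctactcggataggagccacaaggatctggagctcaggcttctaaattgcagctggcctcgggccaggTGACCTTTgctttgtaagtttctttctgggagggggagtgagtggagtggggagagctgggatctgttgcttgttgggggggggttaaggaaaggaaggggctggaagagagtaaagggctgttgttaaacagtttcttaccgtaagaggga
The motifs were the AP-1 site TGANTCA, the cyclic AMP response element TGACGTCA, its shorter form TGACG (which the longer one contains), the NR4A site AAAGGTCA, the ETS form CCGGAAG and the TATA form TATAAA. In the Fgf7 window the TATA form was found, on the opposite strand, with its first base 235 bases before the start. The Hgf window held the NR4A site on the opposite strand, 152 bases before the start. The Fgf10 window held none of the 6. Among the windows of the other members, that of Fgf2 held TGACG and those of Fgf1, Fgf9 and Fgf18 held none. Of 33469 rat promoter windows of this length, 12.9% held the TATA form, 1.24% the NR4A site, 18.2% TGACG, 1.59% TGACGTCA, 6.34% the AP-1 site and 7.27% the ETS form. The windows of Fgf7 and Fgf10 differed in base composition, with 41.6% and 67.2% G and C beside a median of 51.2% over all windows. A match describes letters in this window and does not show a bound site.

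The combination and trimebutine alone differ by trametinib, so this comparison shows the ligand genes with MEK inhibited on a trimebutine background. All 5 tested ligand genes changed against trimebutine alone: Fgf7 rose 3.23-fold, and Fgf10, Fgf2, Hgf and Fgf1 fell, by 1.37-fold to 2.12-fold. Fgf7 and Fgf10, which encode related ligands, went in opposite directions. Over all genes tested in this comparison 33.4% were called, 16.8% higher and 16.6% lower, and 42.0% were called with the replicate block. The median difference was 0.03 over all genes and −0.54 over the 5 ligand genes. With so many genes called, a single call is common here, and the sizes carry more information than the count.

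Fgf7, which encodes keratinocyte growth factor, had log2 values of 9.93, 10.70 and 10.09 with trimebutine (replicates 1 to 3) and 11.69, 12.12 and 11.97 with the combination. The vehicle arrays read 10.04, 10.61 and 10.14, and the alprostadil arrays 10.20, 10.42 and 10.06. Every combination array was above every other array, and the other 3 groups overlapped with each other. The mean went from 10.24 ± 0.40 (SD, n = 3) to 11.93 ± 0.22 (SD, n = 3), a rise of 1.69 (SE 0.20, adjusted p = 6.62e-05) with a 95% confidence interval of 1.24 to 2.14. It ranked 60 among rises over the 13636 genes. Within replicate numbers the rise was 1.76, 1.43 and 1.88. Replicate 2 had the highest Fgf7 value in all 4 groups.

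Fgf10, which encodes an epithelial mitogen needed for limb and lung outgrowth, read 10.46, 10.14 and 10.27 with trimebutine and 9.32, 9.03 and 9.26 with the combination. The fall of 1.08 on the log2 scale (SE 0.12, adjusted p = 2.68e-05) left the mean at 9.20 ± 0.15 (SD, n = 3), a 2.12-fold lower level. It ranked 354 among falls. The fall was of like size in each replicate number, −1.13, −1.10 and −1.01. Within arrays, the log2 ratio of Fgf7 over Fgf10 moved by 2.77 when trametinib was added, from 2.53 to 2.90 over the 3 replicate numbers. The exact permutation test gave p = 0.1 (two-sided), the smallest that 3 arrays against 3 allow. Both genes separated the groups without overlap in opposite directions, so the test could give no other value and adds nothing to the 2 calls. It also did not use the replicate numbers. This ratio shows unequal change of the 2 genes, not the amount of either protein.

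**Figure D1:**
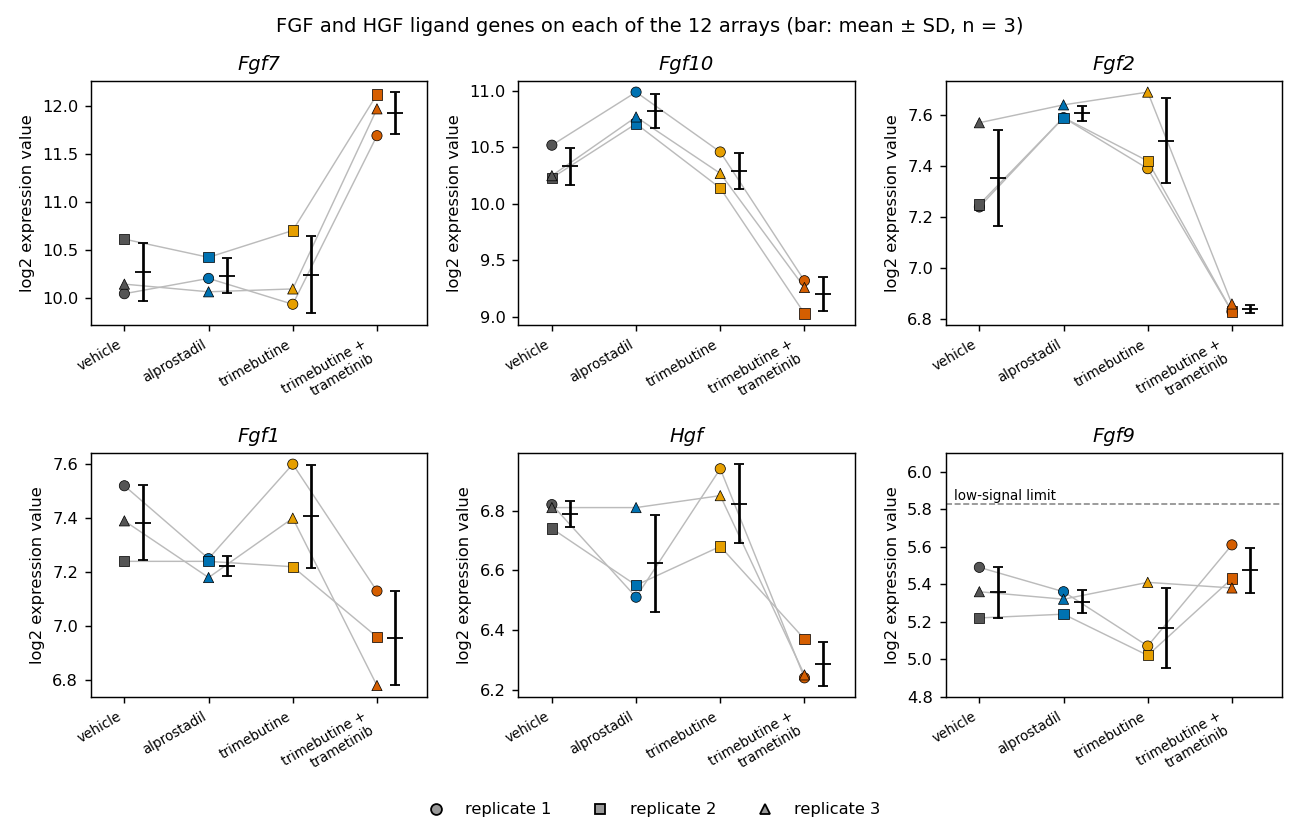
Log2 expression values (y axis, a separate scale per gene) of the 6 measured ligand genes on each array, by treatment group (x axis). Symbols mark replicate numbers, grey lines join arrays with the same number, and the bar beside each group is its mean ± SD (n = 3). Fgf7 was highest and Fgf10, Fgf2, Fgf1 and Hgf were lowest on the combination arrays, while Fgf9 lay under the low-signal limit of 5.83 (dashed line) on all 12.

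Fgf2, the FGF that the medium also supplied as protein, read 7.39, 7.42 and 7.69 with trimebutine and 6.83, 6.83 and 6.86 with the combination. The 3 combination arrays lay within 0.03 of each other and below all 9 other arrays. It fell by 0.66 on the log2 scale (SE 0.10, adjusted p = 0.000295), a 1.58-fold lower level. The probes measure RNA of the cells, so the protein added to the medium is not in these values.

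Hgf, whose product drives motility and growth of epithelial cells through MET, read 6.94, 6.68 and 6.85 with trimebutine and 6.24, 6.37 and 6.25 with the combination. It fell by 0.54 on the log2 scale (SE 0.09, adjusted p = 0.000709), a 1.45-fold lower level, and the groups did not overlap. Fgf1, which encodes a ligand that binds all FGF receptors, read 7.60, 7.22 and 7.40 with trimebutine and 7.13, 6.96 and 6.78 with the combination. Its fall was the smallest of the 4, by 0.45 on the log2 scale (SE 0.11, adjusted p = 0.00861). Over all genes tested, the 2 groups did not overlap for 45.8%, and they did not overlap for any of the 5 ligand genes.

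Fgf9, which encodes a secreted FGF of developing mesenchyme and epithelium, read between 5.02 and 5.61 on all arrays, and its combination arrays overlapped with the trimebutine and vehicle arrays but lay above the alprostadil arrays, which reached 5.36. Its mean was 5.17 ± 0.21 (SD, n = 3) with trimebutine and 5.48 ± 0.12 (SD, n = 3) with the combination. When the low-signal limit was dropped and all 18166 genes were tested, the difference of 0.31 did not pass (adjusted p = 0.0668 by limma), and with the replicate block it did (adjusted p = 0.0409).

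Against vehicle, all 5 tested ligand genes were again called with the combination. Fgf7 rose by 1.67 (SE 0.20, adjusted p = 7.13e-05). Fgf10 fell by 1.13 (SE 0.12, adjusted p = 1.9e-05), Fgf2 by 0.51 (adjusted p = 0.00168), Hgf by 0.50 (adjusted p = 0.00113) and Fgf1 by 0.43 (adjusted p = 0.0112) on the log2 scale. In this comparison 35.0% of all genes were called, 17.5% higher and 17.5% lower, and 43.2% with the block. The groups did not overlap for any of the 5, beside 47.3% of all genes. The comparison shares the combination arrays with the comparison above, so its values are no separate support. The Fgf1 call was lost without vehicle replicate 1 (adjusted p = 0.0501).

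The prostaglandin was compared with vehicle to see whether it changes these ligands. No ligand gene passed over all genes with alprostadil, where 0.389% of all genes were called (0.323% higher and 0.0660% lower), and Fgf10 was the ligand gene with the largest difference. Fgf10 read 10.52, 10.23 and 10.25 with vehicle and 10.99, 10.71 and 10.77 with alprostadil, so that every alprostadil array was above every vehicle array. Groups without overlap occurred for 11.6% of all genes in this comparison. The difference was 0.49 (SE 0.12, 95% confidence interval 0.23 to 0.74), a ratio of 1.40, with adjusted p = 0.154. Within replicate numbers it was 0.47, 0.49 and 0.51. With the replicate block, Fgf10 rose (SE 0.06, adjusted p = 0.00144), in a fit that called 1.88% of all genes, and Fgf10 passed in all 6 blocked fits that lacked a single vehicle or alprostadil array (highest adjusted p = 0.0146).

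Fgf2 read 7.24, 7.25 and 7.57 with vehicle and 7.59, 7.59 and 7.64 with alprostadil. The groups did not overlap, by a gap of 0.02, and the difference of 0.26 did not pass (SE 0.10, adjusted p = 0.58, and adjusted p = 0.123 with the block). Within replicate numbers it was 0.35, 0.35 and 0.07. For Fgf7 the difference was −0.04, with a 95% confidence interval of −0.48 to 0.41. Fgf1 (−0.15, interval −0.40 to 0.09) and Hgf (−0.17, interval −0.36 to 0.03) did not pass either. Hgf read 6.51, 6.55 and 6.81 with alprostadil beside 6.82, 6.74 and 6.81 with vehicle, so replicate 3 did not differ while replicates 1 and 2 were lower. Markers of macrophages, which can also make HGF, are given further on.

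**Figure D2:**
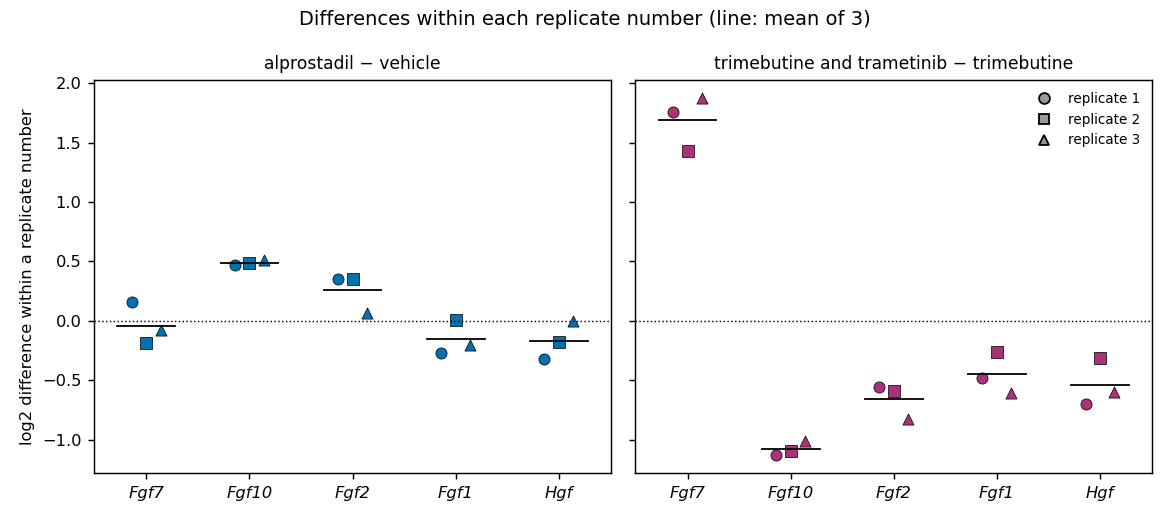
Log2 difference within each replicate number (y axis) for the 5 tested ligand genes (x axis), for alprostadil minus vehicle (left) and the combination minus trimebutine (right). Symbols mark replicate numbers and lines the mean of the 3. The 3 alprostadil differences of Fgf10 lay from 0.47 to 0.51. On the right the groups did not overlap for any of the 5 genes, beside 45.8% of all genes. All 15 differences there therefore had to have the sign of their gene's mean.

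Trimebutine alone was compared with vehicle at the same dose and time. None of the 5 ligand genes passed, and none of the 13636 genes did (0%), by limma with or without the block, while 143 genes had an unadjusted p under 0.05, or 252 with the block. The ligand gene with the largest difference was Fgf2, which read 7.39, 7.42 and 7.69 with trimebutine, a difference of 0.15 (SE 0.10, adjusted p = 1) that was 0.14, 0.17 and 0.12 within replicate numbers. All 5 overlapped between the groups, where 4.23% of all genes did not. The other differences lay from −0.05 for Fgf10 to 0.04 for Hgf. The confidence intervals of the model without the block ran from −0.47 to 0.43 for Fgf7 and from −0.30 to 0.21 for Fgf10. They include the spread between replicate numbers. For Fgf7 the SE was 0.20 without the block and 0.10 with it, and for Fgf10 it was 0.12 and 0.06. Within replicate numbers the differences were −0.11, 0.09 and −0.04 for Fgf7, and −0.07, −0.09 and 0.02 for Fgf10.

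The combination was also set against alprostadil, the other group given an active drug of the screen. Fgf10 had the largest fall among the ligand genes, with alprostadil arrays from 10.71 to 10.99 and combination arrays from 9.03 to 9.32, a fall of 1.62 on the log2 scale (SE 0.12, adjusted p = 1.18e-06) and a 3.07-fold lower level. Fgf2 fell by 0.77 on the log2 scale (SE 0.10, adjusted p = 8.37e-05), Hgf fell by 0.34 (SE 0.09, adjusted p = 0.0116), and Fgf7 rose by 1.70 (SE 0.20, adjusted p = 5.72e-05). Fgf1 had a difference of −0.27 that did not pass (SE 0.11, adjusted p = 0.0767) and that passed with the replicate block (adjusted p = 0.0178). That blocked call was kept in 3 of 6 blocked fits that lacked an array, and lost in those without alprostadil replicate 2 or 3 (adjusted p = 0.0966 and 0.0582) and without combination replicate 3 (adjusted p = 0.0779). Without the block, Fgf1 passed in 1 setting, without combination replicate 1 (adjusted p = 0.037). In this comparison 37.9% of all genes were called, 19.6% higher and 18.2% lower, and 46.4% with the block. The groups did not overlap for any of the 5, beside 48.9% of all genes. A moderated F test over the 4 groups called all 5 ligand genes, with adjusted p from 5.93e-06 for Fgf10 to 0.0245 for Fgf1, beside 32.5% of all genes, or 42.7% with the block.

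**Figure D3:**
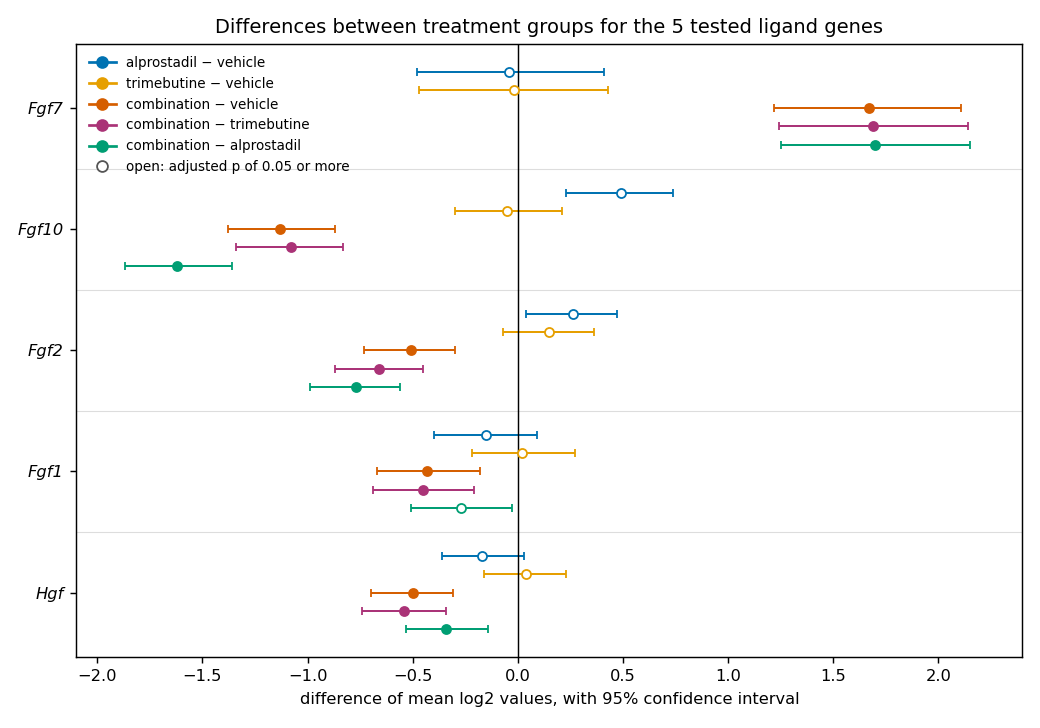
Differences of mean log2 values (x axis) with 95% confidence intervals for the 5 tested ligand genes (y axis), coloured by comparison, where the combination is trimebutine with trametinib. Open points did not pass. Fgf7 lies near 1.7 and the other genes below 0 in each comparison with the combination, and alprostadil against vehicle places Fgf10 at 0.49.

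The order of the groups followed from these values. For Fgf10 the order from low to high was combination, trimebutine, vehicle and alprostadil, with gaps of 1.08, 0.05 and 0.49, and only trimebutine and vehicle overlapped among neighbours. For Fgf7 it was alprostadil, trimebutine, vehicle and combination, with gaps of 0.01, 0.02 and 1.67, where the lowest 3 groups could not be ordered beyond their spread. For Fgf2 (combination, vehicle, trimebutine, alprostadil), Fgf1 and Hgf (both combination, alprostadil, vehicle, trimebutine), the combination stood below the rest and the other neighbours overlapped. In all 5 genes the step between the combination and its neighbour was free of overlap. Such separation was common, since the combination did not overlap with trimebutine for 45.8% of all genes. The share was 47.3% against vehicle and 48.9% against alprostadil.

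The genes whose values over the 12 arrays lay closest to each ligand gene, after each gene was centred on its own mean, were taken as a description with no test. For Fgf7 these were Zfp385a, Ogn (the matrix proteoglycan osteoglycin) and Pdlim1, at root mean square distances of 0.19 to 0.20. For Fgf10 they were Rnf149 (0.09), Cym (0.12) and Snx18 (0.14). The nearest genes were Thsd7a, Calcoco1 and Ypel4 for Fgf2 (0.10 to 0.11), Ripor3, Micos10l1 and Nr2f2 for Fgf1 (0.07 to 0.08), and Rbm38, Pfkm and Ampd2 for Hgf (0.08 to 0.09). Fgf7, with the largest distances, also had the largest difference against trimebutine (1.69) and the larger spread between replicate numbers. Between the same groups Zfp385a differed by 1.61, Ogn by 1.79 and Pdlim1 by 1.46. The part of these differences and of the spread in the distances was not tested. The distances are in log2 units and include the spread between replicate numbers.

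Of 16 other listed genes of the FGF and HGF families, none passed without the block. All 16 had a feature, 8 passed the low-signal limit, and none of the 8 was called in any of the 5 comparisons. Between the combination and trimebutine they lay from −0.09 to 0.23, with a median of 0.00. Their mean log2 values with vehicle lay from 5.83 to 7.11, beside the low-signal limit of 5.83. Several were thus close to that limit, where a lack of change is hard to read. Mst1, the ligand most related to HGF, had the smallest p of the F test (adjusted p = 0.206), with a difference of 0.15. Fgf11 (0.03), Fgf22 (−0.02) and Fgf4 (0.08) followed. Fgf12, like Fgf11, encodes an intracellular FGF homologous factor and not a secreted ligand. With the block it rose with the combination against trimebutine, by 0.23 (adjusted p = 0.0156, and adjusted p = 0.295 without the block).

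Among 7 tested receptors and co-receptors, 1 rose and 2 fell with the combination against trimebutine, where 33.4% of all genes were called, so the count is near that share. Met, which encodes the HGF receptor, went from 8.20 ± 0.18 (SD, n = 3) to 7.03 ± 0.21 (SD, n = 3), and fell by 1.17 on the log2 scale (SE 0.13, adjusted p = 3.94e-05). Transcripts of the ligand Hgf and of its receptor thus both fell in this comparison. Fgfr1, the main FGF receptor gene of mesenchymal cells, fell by 0.20 (SE 0.07, adjusted p = 0.0474), from 11.37 to 11.17, and its F test did not pass (adjusted p = 0.115). Fgfr4 rose by 0.20 (SE 0.06, adjusted p = 0.022). Fgfr2, whose epithelial form binds FGF7 and FGF10, had a difference of −0.18 (SE 0.12, adjusted p = 0.307), and Fgfr3 one of 0.20 (adjusted p = 0.117) that passed with the block (adjusted p = 0.0242). No receptor gene passed with alprostadil or trimebutine.

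HGF needs cleavage to become active, and of 6 tested genes of activating proteases and their inhibitors 1 rose and 1 fell with the combination against trimebutine, a share near the 33.4% called over all genes. Plau, which encodes urokinase, fell by 2.24 on the log2 scale (SE 0.25, adjusted p = 3.79e-05). Plat, which encodes tissue plasminogen activator, rose by 0.47 (SE 0.09, adjusted p = 0.00216). With alprostadil Plat had a difference of 0.45 (adjusted p = 0.0867) that passed with the block (adjusted p = 0.00397). Hgfac, the gene of the HGF activator protease, and St14, which encodes matriptase, had differences of 0.19 and 0.05 for the combination against trimebutine and did not pass.

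Heparan sulfate chains hold FGFs near their receptors, and their genes went both ways. Of 20 tested genes for these chains, their core proteins and FGF-binding proteins, 7 rose and 4 fell with the combination against trimebutine (median 0.17), or 10 and 4 with the block. Over all genes tested, 33.4% were called in this comparison, or 42.0% with the block. Hs2st1, a sulfotransferase gene, fell by 0.65 on the log2 scale (SE 0.08, adjusted p = 4.5e-05). The syndecan genes Sdc1 (−0.54, adjusted p = 0.000146) and Sdc4 (−0.38, adjusted p = 0.000626) fell as well. The syndecan gene Sdc2 rose (0.21, adjusted p = 0.036), and Sdc3 (0.24) rose only with the block (adjusted p = 0.0191). Sulf1 (−1.14) fell and Sulf2 (0.89) rose, although both encode extracellular sulfatases that trim heparan sulfate. Hs3st1, another sulfotransferase gene, rose with alprostadil, by 1.00 (SE 0.13, adjusted p = 0.00395), and with the combination against trimebutine, by 0.76 (SE 0.13, adjusted p = 0.000711). Of the 6 lists of related signalling genes, it was the 1 gene that passed with alprostadil without the block.

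Most response genes fell with the combination against trimebutine, while adaptor genes were called at a share near that of all genes, 33.4%. Of 11 adaptor genes 2 rose, Gab2 (0.64) and Ptpn11 (0.38), and Shc1 (−0.36) fell, while Cbl (−0.04) was among the 8 that did not pass. Of 14 tested response and feedback genes of FGF signalling, 11 fell and 1 rose, with a median of −0.73. The phosphatase genes Dusp6 (−3.23) and Dusp5 (−3.00) and the feedback inhibitor gene Spry4 (−2.01) fell most, and Spry2 rose by 0.58 (adjusted p = 3.93e-05). No response gene passed with alprostadil, where the list lay from −0.27 to 0.21.

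**Figure D4:**
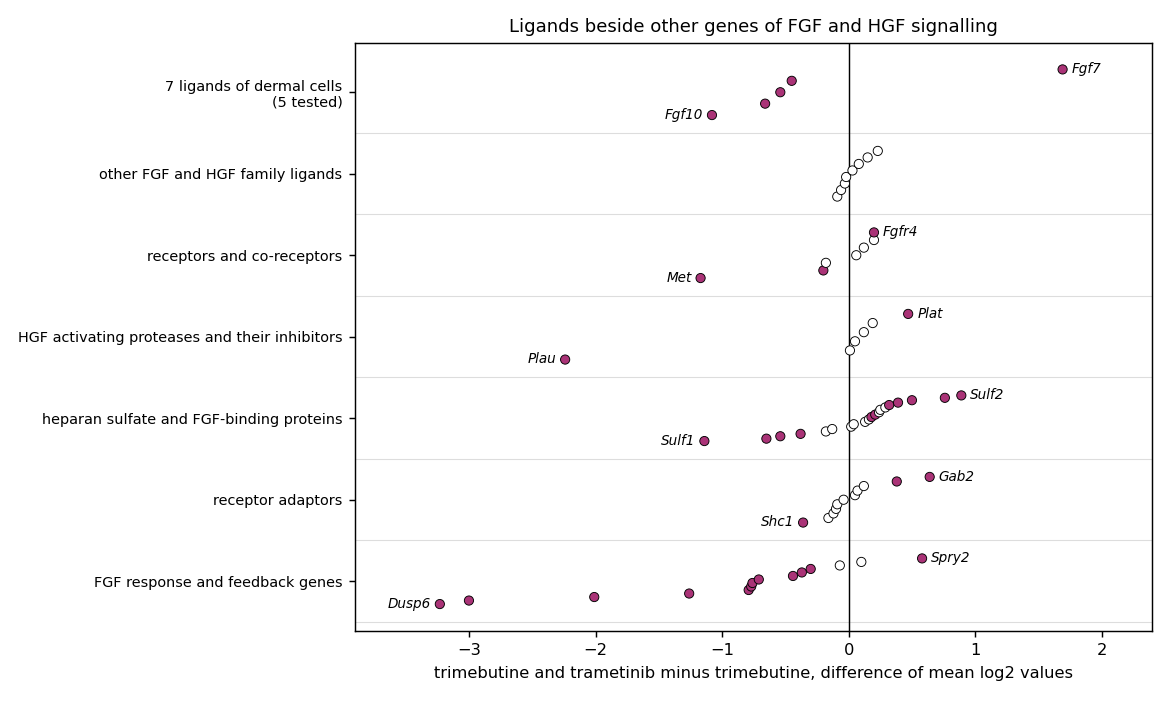
Difference of mean log2 values between the combination and trimebutine (x axis) for every tested gene of each list (y axis, genes sorted by value within a list). Filled points passed and open points did not, and the outermost genes that passed are named. The 5 tested ligand genes were all called, Fgf7 at 1.69 above 0, in a comparison where 33.4% of all genes were called. The 8 tested genes among the other listed ones of the FGF and HGF families lay from −0.09 to 0.23. Their vehicle means were 5.83 to 7.11, beside a low-signal limit of 5.83.

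In bulk RNA fewer cells of a type and less RNA per cell cannot be told apart, so markers of other cells are given beside these results. Of 10 tested macrophage markers, 1 fell with the combination against trimebutine, Cd68 by 1.03 on the log2 scale (SE 0.12, adjusted p = 5e-05). With the block Cd68, Ptprc and Cd14 fell and Csf1r rose. Over all genes 33.4% were called in this comparison, or 42.0% with the block, so neither macrophage count was above that share. The mean log2 level of the 11 measured macrophage markers ranged over arrays from 7.28 to 8.29 with trimebutine and from 7.12 to 7.83 with the combination, and from 7.38 to 8.28 with vehicle and 7.13 to 8.37 with alprostadil. Their part in the Hgf result was not tested. Cd163 was under the low-signal limit on all arrays. In the blocked fit of alprostadil against vehicle, where Fgf10 rose, the macrophage marker Adgre1 fell (−0.83, adjusted p = 0.00544). That fit called 1.88% of all genes. In it the Schwann cell marker Gap43 (0.25, adjusted p = 0.0226) and the dermal marker Twist2 (0.33, adjusted p = 0.0159) rose. Their part in the Fgf10 result was not tested.

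No keratinocyte marker of 6 tested and no endothelial marker of 4 tested passed for the combination against trimebutine, with mean log2 levels of 5.72 to 5.96 and 5.79 to 6.03 over all arrays, near the low-signal limit. Epcam and Dsg3 were under it on every array. The endothelial marker Tek had an overall mean under the limit and was not tested, and read 6.22 ± 0.18 (SD, n = 3) with the combination and 5.81 ± 0.08 (SD, n = 3) with trimebutine, a difference of 0.40, and the difference from vehicle was 0.61. Krt15, first of the keratinocyte markers by the F test, had a difference of 0.16 (adjusted p = 0.138). Of 6 tested Schwann cell markers none passed, and S100b rose with the block (0.58, adjusted p = 1.45e-05). Their mean levels were from 6.77 to 7.18. Of 3 tested melanocyte markers, Dct rose by 0.31 (adjusted p = 0.013), and Tyr, Tyrp1 and Mlana were under the limit on all arrays. Of all genes, 33.4% were called for the combination against trimebutine. Among 14 dermal precursor markers 5 rose, Col3a1 (0.97), Twist2 (0.83) and Col1a1 (0.56) among them, and 2 fell, Pdgfra (−0.79) and Twist1 (−0.29). Their mean level lay between 10.96 and 11.06 with trimebutine and between 11.08 and 11.14 with the combination. The part of these shifts in the ligand results was not tested.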

How the data were processed

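RNA of each culture was measured on a 1-colour Affymetrix rat gene array. The deposited values are log2 expression made by the authors, and the submitters' processing notes name oligo and RMA. RMA normalizes between arrays, so a shift of all genes together would be removed. Software versions and the genome build were not given in the sources used here. Groups and replicate numbers came from the titles.

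Of 36685 features, 18511 had 1 gene symbol, 575 several and 17599 none in the platform annotation. Only the first kind was used. Symbols were updated through Entrez identifiers to GRCr8 (18394 matched). The brightest feature per gene gave 18166 genes, and 13636 were tested, those with a mean log2 value of at least 5.83, the 25th percentile over features with a symbol. One limma 3.58.1 model (R 4.3.3; lmFit, contrasts.fit, eBayes, two-sided) had a mean per group and 8 residual degrees of freedom, or 6 with the replicate block. The steps without the block were tested on simulated data that held no replicate effect. Of 50 log2 changes of 0.5, 68% were found for alprostadil against vehicle and 62% for the combination against trimebutine. For changes of 1 the shares were 96% and 88%. The blocked fit was not tested in this way.

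Replicate numbers 1 to 3 recur in the titles of every group, and 3 independent isolates are named in the series' design. Deviations from the group means correlated at 0.21 to 0.808 in the 18 same-numbered pairs of arrays and at −0.708 to 0.10 in the 36 others. Arrays were thus paired by number. The main model did not use this pairing, so calls given without mention of the block ignore it. Among the fits, only those with the replicate block used it. P-values without the block measure the spread between these cultures, with that between replicate numbers included. Those with the block measure the spread that remains after replicate numbers are fitted. In both, the number of arrays limits the precision. The ligand genes and the lists were chosen with earlier results of these data known. Named genes were all ligand genes, up to 4 genes per list with the smallest p in the F test, the FGF receptors and Met, and the 3 nearest genes in pattern (names made of a locus number, and odorant or vomeronasal receptors, were passed over). Others named with the lists (Sulf1, Sulf2, Sdc2, Sdc3, Fgf12, Twist1, Tek, and markers called with the block or under the limit) were picked with their values in view. The promoter table matched all 7 ligand genes. Alternatives were other filters, scalings, feature rules and variance models, the block, the groups of the comparison alone, and each array left out.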

Additional observations from a re-analysis of the deposited data

How the results depend on the processing

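The calls of Fgf7, Fgf10, Fgf2 and Hgf in the 3 comparisons with the combination were kept in every alternative run for them, with differences against trimebutine from 1.53 to 1.92 for Fgf7 and from −0.72 to −0.57 for Fgf2. Hgf did not pass the stricter low-signal filter and was not tested there. The Fgf1 call against trimebutine was kept throughout (adjusted p up to 0.0381 by limma). Without the block, Fgf10 with alprostadil passed in none of the other settings (adjusted p up to 0.564). With the replicate block the count of ligand genes called with alprostadil went from 0 to 1, also when any array was left out as well (1 in each, a setting chosen after seeing the data). The block changed no call with trimebutine against vehicle. The count of all genes called with alprostadil was 53 and became 257 with the block, 30 without vehicle replicate 2, 32 without vehicle replicate 3, 34 without alprostadil replicate 1, 32 without alprostadil replicate 2, and 29 with only these groups in the fit.

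Small differences that did not pass changed sign when an array was left out. With trimebutine against vehicle, runs without an array ranged from −0.08 to 0.12 for Fgf1 (−0.02 to 0.10 with the replicate block, where −0.02, −0.02 and −0.01 were below 0), −0.13 to 0.05 for Fgf10, −0.25 to 0.15 for Fgf7 (−0.13 to 0.05 with the block, where 0.01, 0.01 and 0.05 were above 0) and −0.02 to 0.11 for Hgf (−0.05 to 0.10 with the block). With alprostadil against vehicle, Fgf7 ranged from −0.15 to 0.14 (−0.15 to 0.04 with the block, where 0.01 and 0.04 were above 0). Other scalings left the median difference of all genes at 0.060 or less and turned no called direction.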
